A study of Mus musculus with 12 samples.

Results

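Toll-like receptors are the sensors with which macrophages recognise microbes, and the 10 receptor genes listed for mouse, Tlr1 to Tlr9 and Tlr13, were followed in bone marrow-derived macrophages (BMDM) over genotype and time of LPS. The genes were chosen by symbol, and all 10 were found among the 43280 genes of the deposited expression table and passed the filter on low values. BMDM are macrophages grown from mouse bone marrow in culture with M-CSF, here at 20 ng/ml. Cells of C57BL6 background were wild type (wt) or Treml4-/-, the latter lacking a TREM-family receptor of myeloid cells. They were unstimulated (M0) or given lipopolysaccharide (LPS), a bacterial cell wall component, at 100 ng/ml for 8 h (M1-8 h) or 12 h (M1-12 h). Each of the 6 conditions had 2 biological replicates, which gave 12 poly(A) RNA-seq libraries. The ages of the mice are not in the labels.

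Toll-like receptors fall into 2 groups by where they sit. TLR1, TLR2, TLR4, TLR5 and TLR6 act at the cell surface on lipids, lipopeptides and flagellin, with TLR2 working as a pair with TLR1 or TLR6 and TLR4 serving as the LPS receptor. TLR3, TLR7, TLR8, TLR9 and TLR13 act in endosomes on nucleic acids, namely double-stranded RNA for TLR3, single-stranded RNA for TLR7 and TLR8, unmethylated CpG DNA for TLR9 and bacterial ribosomal RNA for TLR13. All but TLR3 signal through the adaptor MyD88, and TLR3 and TLR4 use TRIF, which leads to type I interferon.

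Between 48008751 and 58500792 reads were counted on genes per library, so that 3 reads, taken as the floor, came to 0.0513 to 0.0625 CPM (counts scaled to the library's total). These floors cover counting error only. Treml4 had 0 reads in all 6 Treml4-/- libraries and 198 to 663 reads in the wt libraries. All 7 macrophage markers listed were above 1 CPM in each condition, with a summed level of 20468 to 27537 CPM at M0 and 9712 to 12895 CPM after LPS. In wt at 8 h Csf1r was lower than at M0, at 1206 against 6439 CPM, as were Lyz2, Cd68 and Adgre1. Mertk was higher, at 257 against 34.5 CPM, as were Fcgr1 and Itgam. Markers of T and NK cells reached at most 0.0347 CPM in sum, and Mcpt4 and Fcer1a of mast cells were at 0 reads. B cell markers reached at most 0.309 CPM and stromal markers at most 2.51 CPM. Neutrophil and precursor markers summed to 31.2 and 81.9 CPM in wt M0 and to 85.7 and 99.1 CPM in Treml4-/- M0, and to between 40.4 and 87.5 CPM after LPS. In wt, S100a8 averaged 14.8 CPM at M0 and 32.5 CPM at 8 h. Mpo went the other way, at 13.5 and 4.21 CPM, as did Elane, S100a9 and Ly6g. The sum of the conventional dendritic cell list went from at most 0.998 CPM at M0 to between 4.35 and 9.13 CPM after LPS. Of its members, Xcr1 averaged 0 CPM in wt M0 and 5.89 CPM in wt at 8 h, and Clec9a 0.0584 and 1.54 CPM. Zbtb46 averaged 0.127 and 0.174 CPM, and Flt3 went the other way, at 0.447 and 0.132 CPM. The sum of the plasmacytoid list went from between 32.6 and 37.4 CPM to between 74.4 and 151 CPM. Tcf4 made up 34.2 CPM of this on average in wt M0 and 109 CPM in wt at 8 h. Ccr9 was at 0.302 and 4.32 CPM, Siglech under 0.1 CPM and Klk1 at 0 reads throughout. The part of these cells in the receptor values was not tested. All 12 libraries had Y-linked Ddx3y, at 10.5 to 37.6 CPM, and Xist at no more than 0.791 CPM, which bears on the X-linked genes Tlr7, Tlr8 and Tlr13.

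Promoters of 4 of the listed receptors are printed below so that they can be read beside the expression values. They belong to the 2 listed receptors that rose most after LPS, Tlr9 and Tlr3, and the 2 with a high M0 level that fell most, Tlr13 and Tlr2. Each is the 250 bases before the gene's RefSeq start on GRCm38.p6, 5′ to 3′ on the gene's strand. GENCODE M21 places some starts elsewhere. By its gene bounds the Tlr3 window lies wholly inside the gene, and the Tlr13 and Tlr2 windows lie partly inside theirs. Capitals mark matches, on either strand, to simplified motifs of 4 factors known in macrophages, namely NF-kB (GGG, any 5 bases, CC), IRF and ISRE (GAAA, any 2 bases, GAAA), STAT (TTCNNNGAA) and PU.1 (GAGGAA). No match overlapped a match to another motif. The windows are chr9:106222348-106222597 on the plus strand for Tlr9, chr8:45410381-45410630 on the minus strand for Tlr3, chrX:106143025-106143274 on the plus strand for Tlr13 and chr3:83841609-83841858 on the minus strand for Tlr2.
Tlr9: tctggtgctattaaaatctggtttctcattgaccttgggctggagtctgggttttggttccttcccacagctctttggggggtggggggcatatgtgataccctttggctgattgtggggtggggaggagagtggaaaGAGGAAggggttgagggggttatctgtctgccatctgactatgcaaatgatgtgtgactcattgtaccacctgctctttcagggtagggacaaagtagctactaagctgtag
Tlr3: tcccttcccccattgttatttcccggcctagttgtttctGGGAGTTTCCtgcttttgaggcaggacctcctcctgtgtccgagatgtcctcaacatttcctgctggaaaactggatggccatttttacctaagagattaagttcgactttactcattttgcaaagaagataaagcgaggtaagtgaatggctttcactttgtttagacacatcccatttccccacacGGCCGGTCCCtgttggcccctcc
Tlr13: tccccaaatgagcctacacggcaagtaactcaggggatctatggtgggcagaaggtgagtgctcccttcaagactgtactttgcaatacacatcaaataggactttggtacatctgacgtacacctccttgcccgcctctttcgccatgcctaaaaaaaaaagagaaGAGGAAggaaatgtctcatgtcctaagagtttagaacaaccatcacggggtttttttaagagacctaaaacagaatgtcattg
Tlr2: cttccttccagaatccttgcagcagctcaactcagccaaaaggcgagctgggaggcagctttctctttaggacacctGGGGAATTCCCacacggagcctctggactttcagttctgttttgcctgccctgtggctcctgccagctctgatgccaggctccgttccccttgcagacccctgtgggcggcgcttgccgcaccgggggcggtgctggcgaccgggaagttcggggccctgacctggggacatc

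Promoters of 8 of the 10 receptors were in the RefSeq table, which left out Tlr4 and Tlr7. The Tlr2 window held 2 overlapping NF-kB matches that together read GGGGAATTCCC, at 173 to 163 bases before the start. The Tlr3 window held an NF-kB match on each strand, GGGAGTTTCC at 211 to 202 and GGCCGGTCCC at 23 to 14 bases before the start. Tlr9 and Tlr13 each held a single PU.1 match and no match to the other motifs. Each of these motifs was thus found both at a receptor that rose after LPS and at one that fell. Among the windows not shown, one of the windows of Tlr6 held 2 overlapping IRF and ISRE matches on the opposite strand, at 116 to 101 bases before the start, and its other window held an NF-kB match, as did the window of Tlr5. Tlr1 and Tlr8 each had a STAT and a PU.1 match. Of all 32851 mouse promoters in the table, 45.8% held the NF-kB motif, 23.3% the PU.1 motif, 7.02% the STAT motif and 2.98% the IRF and ISRE motif. A match is a run of letters and not evidence of binding.

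At M0 the receptor transcripts were dominated by Tlr13. To compare genes, CPM were divided by the summed exon length in kilobases, and the 4 libraries of a time point were described together as mean ± SD. Tlr13 stood at 168 ± 11.1 CPM per kb (SD, n = 4), above Tlr2 at 77.4 ± 6.88, Tlr7 at 33.3 ± 3.92 and Tlr8 at 28.5 ± 2.06. The ranges of Tlr7 and Tlr8 overlapped, while those of Tlr13 and Tlr2 lay apart from their neighbours. Tlr9 followed at 9.16 ± 0.991 CPM per kb, overlapping no other receptor. Tlr6 at 6.66 ± 0.306, Tlr4 at 6.65 ± 0.436 and Tlr1 at 5.48 ± 0.805 CPM per kb came next, each overlapping its neighbour. Tlr3 at 1.46 ± 0.171 and Tlr5 at 0.295 ± 0.0538 CPM per kb were lowest. The LPS receptor itself was thus among the lower receptor transcripts of unstimulated BMDM.

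After LPS the order was rearranged, with Tlr9 first at 8 h and Tlr9 and Tlr13 overlapping at 12 h. At 8 h Tlr9 stood at 62.4 ± 9.85 CPM per kb (SD, n = 4), above Tlr7 at 38.7 ± 5.25 and Tlr8 at 38.3 ± 7.74, which overlapped. Tlr13 at 20.9 ± 7.51, Tlr1 at 20.5 ± 3.62, Tlr2 at 16.1 ± 2.43 and Tlr6 at 14.7 ± 1.17 CPM per kb formed a run in which each overlapped the next. At 12 h Tlr9 at 70.1 ± 7.47 and Tlr13 at 67.2 ± 10.8 CPM per kb overlapped, Tlr9 being first in wt, at 75.2 ± 2.97 (SD, n = 2), and Tlr13 in Treml4-/- cells, at 73.5 ± 6.71. Tlr2 at 10.3 ± 1.17 had moved down to eighth place, beside Tlr3 at 10.7 ± 1.14. Tlr4 stayed ninth and Tlr5 last at both times.

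The sum of the 10 receptors was lower after LPS in CPM, but not after median of ratios scaling, which sets the typical gene equal between libraries. In CPM it lay between 1238 and 1430 CPM in the 4 M0 libraries, between 764 and 949 CPM at 8 h and between 975 and 1079 CPM at 12 h. With that scaling it lay between 849 and 926 at M0, 917 and 1049 at 8 h and 1184 and 1332 at 12 h. The 5 endosomal receptors made up 69.2% to 72.6% of the summed CPM per kb at M0, 74.0% to 75.9% at 8 h and 80.6% to 84.2% at 12 h, so that the ranges of the 3 times did not overlap. Of the summed CPM per kb, Tlr13 took 48.5% to 51.0% and Tlr9 2.29% to 3.31% at M0, against 5.36% to 12.7% and 22.7% to 33.5% at 8 h. At 12 h they were close, with Tlr13 at 20.5% to 28.4% and Tlr9 at 21.7% to 30.3%, and Tlr9 the higher in 3 of 4 libraries.

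**Figure D1:**
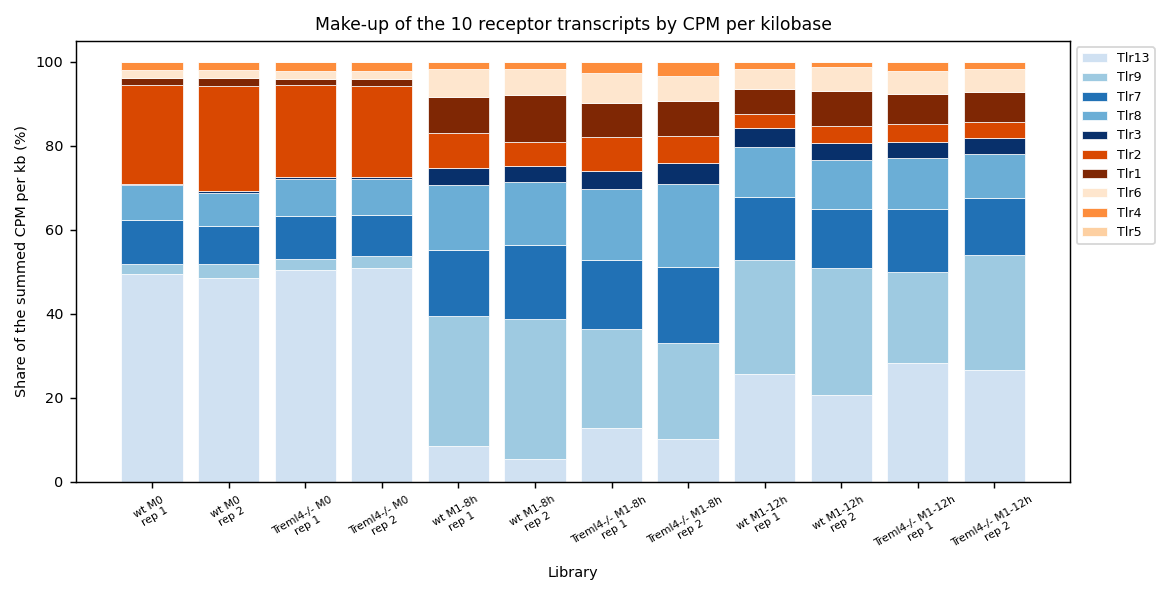
Stacked bars give, for each of the 12 libraries on the x axis, the share (%) of the summed CPM per kb taken by each of the 10 receptor genes, with the 5 endosomal receptors in blue at the bottom and the 5 surface receptors in orange on top. Tlr13 and Tlr2 fill most of the M0 bars, Tlr9 widens after LPS, and Tlr13 is wider at 12 h than at 8 h.

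LPS changed the level of most genes, and this sets how the receptor counts are read. Levels were tested as log2(CPM + 1) with limma, and a gene with adjusted p below 0.05 that moved at least 1.4-fold counted as a DEG (differentially expressed gene). At 8 h 8 of the 10 receptors were DEG in wt, 4 higher and 4 lower, where 76.9% of the 12086 genes tested were DEG, 16.3% higher and 60.6% lower. Likewise 8 receptors were DEG at 8 h in Treml4-/- cells, 5 higher and 3 lower, where 75.9% of all genes were DEG, 17.7% higher and 58.1% lower. At 12 h 8 receptors were DEG in wt, 4 higher and 4 lower, beside 76.7% of all genes (16.2% higher, 60.4% lower). The count was 7 in Treml4-/- cells at 12 h, 4 higher and 3 lower, beside 75.7% (16.1% higher, 59.6% lower). The share of receptors called was thus near that of all genes. The 8 h and 12 h comparisons of a genotype shared its M0 libraries. In these bulk samples, fewer cells of a type and less RNA per cell cannot be told apart.

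Under scaling to library size the median tested gene was lower after LPS by 0.74 (wt, 8 h), 0.70 (Treml4-/-, 8 h), 0.77 (wt, 12 h) and 0.74 (Treml4-/-, 12 h) on the log2 scale. The median change of the 10 receptors was 0.17, 0.45, 0.17 and 0.13 in the same order. Under median of ratios scaling, which centres the typical gene, the median gene moved by no more than 0.05 and the receptors by a median of 1.01, 1.19, 1.04 and 0.95, all upward. Under that scaling 9 receptors were DEG at 8 h in wt, 6 higher and 3 lower, beside 61.8% of all genes (30.9% higher, 30.9% lower), and 10 in Treml4-/- cells, 7 higher and 3 lower, beside 63.5% (31% higher, 32.5% lower). At 12 h 9 were DEG in wt, 6 higher and 3 lower, beside 66% (32.9% higher, 33.1% lower), and 8 in Treml4-/- cells, 6 higher and 2 lower, beside 64.9% (32.4% higher, 32.5% lower). Levels are therefore given in CPM, and each change is given under both scalings where they differ in direction or call.

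Tlr1, Tlr6, Tlr3 and Tlr9 rose in both genotypes at both times under both scalings, while Tlr2 and Tlr5 fell likewise. Tlr13 was lower in all 4 comparisons under both scalings. It was a DEG in each but Treml4-/- at 12 h under median of ratios. Tlr4, Tlr7 and Tlr8 changed call or direction with the scaling.

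**Figure D2:**
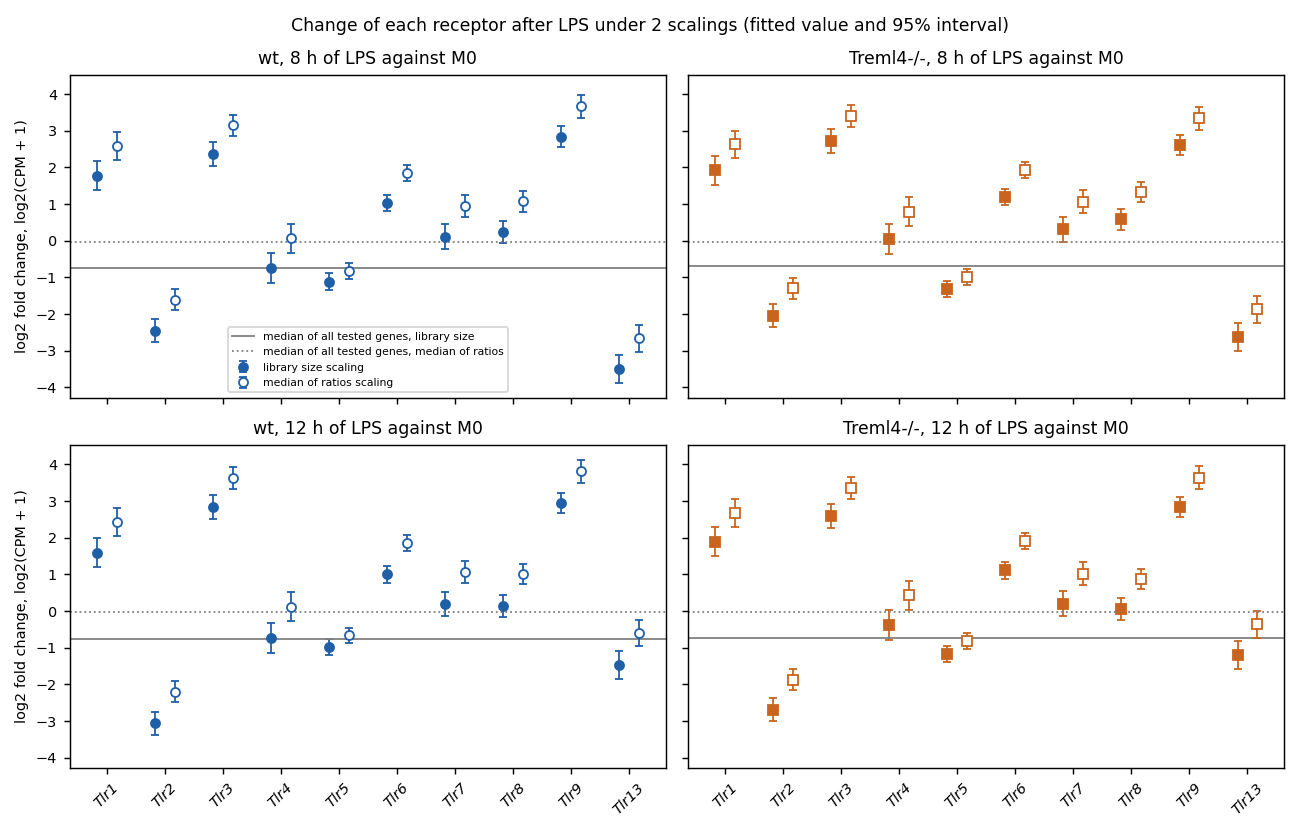
Points give the fitted log2 fold change on the log2(CPM + 1) scale of each receptor (x axis) after LPS against M0, with 95% intervals, in 4 panels by genotype and time, filled for library size scaling and open for median of ratios scaling. Grey lines mark the median of all tested genes, near -0.7 under the former and near 0 under the latter. Tlr1, Tlr3, Tlr6 and Tlr9 lie above 0 and Tlr2 and Tlr5 below 0 under both. Tlr4 crosses 0 between scalings in wt at both times and in Treml4-/- cells at 12 h.

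Among the surface receptors, Tlr2 showed the largest fall that was well above the floor. Tlr2 is the shared partner for lipopeptide recognition. It had 259 and 241 CPM in wt M0 and 214 and 218 CPM in Treml4-/- M0. At 8 h it had 51.9 and 38.9 CPM in wt and 55.9 and 47.4 CPM in Treml4-/- cells, and at 12 h 26.8 and 31.3 CPM in wt and 35.4 and 30.3 CPM in Treml4-/- cells. Every LPS library lay below every M0 library, and every 12 h library below every 8 h library. In wt, mean Tlr2 CPM was 5.51-fold lower at 8 h and 8.60-fold lower at 12 h, and the log2 fold change was -2.45 (SE 0.14, limma adjusted p = 2.34e-08) and -3.06 (SE 0.14, adjusted p = 4.00e-09). The Treml4-/- values were -2.05 at 8 h and -2.69 at 12 h.

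Both partners of TLR2 moved the other way. Tlr1, the partner for triacylated lipopeptides, had 21.6 and 18.5 CPM in wt M0 and 15.0 and 18.2 CPM in Treml4-/- M0. At 8 h Tlr1 had 58.4 and 85.2 CPM in wt and 60.9 and 69.9 CPM in Treml4-/- cells, and at 12 h it lay between 54.5 and 71.4 CPM in the 4 libraries. The log2 fold change of Tlr1 in wt was 1.77 at 8 h (SE 0.18, limma adjusted p = 2.75e-06) and 1.60 at 12 h, and in Treml4-/- cells 1.92 and 1.89. Tlr6, the partner for diacylated lipopeptides, had between 24.0 and 26.5 CPM in the 4 M0 libraries, between 51.0 and 61.1 CPM at 8 h and between 48.9 and 56.7 CPM at 12 h. Its log2 fold change was 1.02 in wt (SE 0.10, adjusted p = 2.03e-06) and 1.20 in Treml4-/- cells at 8 h, and the 12 h libraries overlapped those of 8 h. Tlr1 (chr5:64924679-64933563) and Tlr6 (chr5:64952031-64960097) are neighbours on the minus strand of GRCm38. Of the 126-base windows of their transcripts, the read length used here, 5.74% of those of Tlr1 and 5.16% of those of Tlr6 were identical between the 2 genes, so a small part of their reads could not be told apart.

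Tlr4, which binds LPS with its co-receptor MD-2, had 37.0 and 33.7 CPM in wt M0 and 37.7 and 39.5 CPM in Treml4-/- M0. At 8 h it had 20.2 and 21.2 CPM in wt but 33.5 and 48.2 CPM in Treml4-/- cells, and at 12 h 24.3 and 18.0 CPM in wt and 33.8 and 25.8 CPM in Treml4-/- cells. All 4 wt LPS libraries lay below all 4 M0 libraries, while the Treml4-/- M1-8 h libraries lay on either side of M0. The log2 fold change of Tlr4 in wt was -0.74 at 8 h (SE 0.18, limma adjusted p = 0.00271) and -0.73 at 12 h (adjusted p = 0.00308), near the shift of the median gene. Under median of ratios it was 0.07 and 0.12 in wt, neither a DEG. In Treml4-/- cells it was 0.06 at 8 h and -0.37 at 12 h under library size, neither a DEG, and 0.79 (adjusted p = 0.00164, a DEG) and 0.43 (adjusted p = 0.0461, under the fold limit) under median of ratios. The 12 h value became a DEG without Treml4-/- M1-12 h replicate 1, at -0.56, and with the trend in GC content and gene length taken out, at -0.69.

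Tlr5, the flagellin receptor, was barely present. It had 74 and 55 reads in wt M0 and 84 and 77 reads in Treml4-/- M0, that is 1.08 to 1.71 CPM. At 8 h it had 1 and 3 reads in wt and 2 and 2 reads in Treml4-/- cells, all at or under the floor of 3 reads, and at 12 h between 6 and 9 reads per library. With reads summed over replicates, Tlr5 in wt was 32.5-fold higher at M0 than at 8 h (95% exact interval 12.4 to 121, from 129 and 4 reads) and 9.20-fold higher than at 12 h (5.29 to 17.3, from 129 and 14 reads). The ratios in Treml4-/- cells were 44.4 (17.0 to 165) and 11.1 (6.51 to 20.2). These intervals cover counting error only, not the spread between replicates, and reads are not independent molecules. Tlr5 was a DEG in all 4 comparisons, but its log2(CPM + 1) changes of -0.98 to -1.31 understate it because the pseudocount of 1 exceeds the LPS levels.

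**Figure D3:**
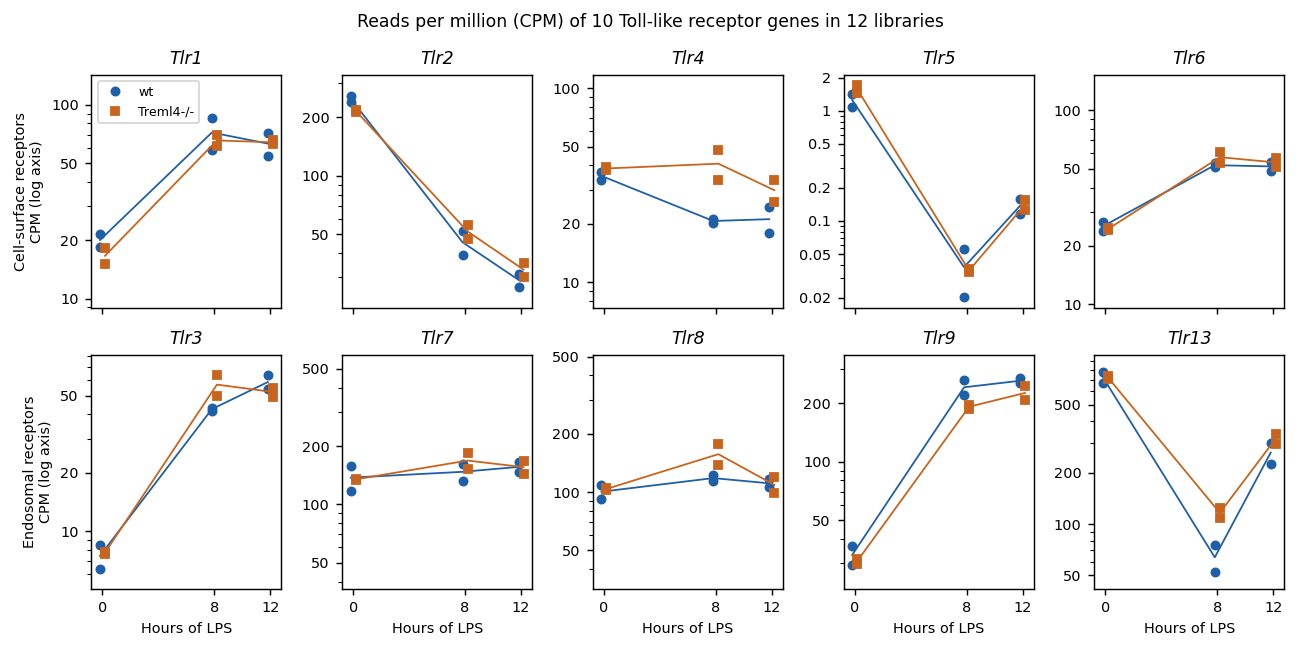
CPM of each receptor (y axis, log scale, a range of its own per panel) against hours of LPS (x axis) in the 12 libraries, with surface receptors in the upper and endosomal receptors in the lower row. Points are libraries, blue circles wt and orange squares Treml4-/-, and lines join the means of 2 replicates. Tlr13 and Tlr5 are lowest at 8 h and higher at 12 h, and Tlr4 in wt lies below Treml4-/- at 8 h.

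Among the endosomal receptors, Tlr9 and Tlr3 rose most. Tlr9, the CpG DNA receptor, had 29.3 and 36.8 CPM in wt M0 and 29.8 and 31.6 CPM in Treml4-/- M0. At 8 h it had 219 and 264 CPM in wt and 188 and 196 CPM in Treml4-/- cells, and at 12 h 254 and 269 CPM in wt and 208 and 245 CPM in Treml4-/- cells. At each LPS time both wt libraries lay above both Treml4-/- libraries, but the genotype difference was a DEG at neither time. Such an order of 2 against 2 libraries can arise without a difference, and its share over all genes was not counted. All LPS libraries lay far above M0. In wt, mean Tlr9 CPM at 8 h was 7.32-fold higher and the log2 fold change 2.84 (SE 0.13, limma adjusted p = 2.90e-09). In Treml4-/- cells it was 6.26-fold higher, at 2.61 (SE 0.13, adjusted p = 5.93e-09). At 12 h the log2 fold changes were 2.96 and 2.84.

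Tlr3, the sensor of double-stranded RNA, had 8.52 and 6.39 CPM in wt M0 and 7.66 and 7.86 CPM in Treml4-/- M0. At 8 h it had 41.8 and 43.4 CPM in wt and 49.9 and 64.1 CPM in Treml4-/- cells, and at 12 h 63.7 and 53.9 CPM in wt and 55.0 and 49.5 CPM in Treml4-/- cells. Both Treml4-/- libraries lay above both wt libraries at 8 h, a difference that was not a DEG, and the genotypes overlapped at 12 h. The share of all genes with such an order at 8 h was not counted. The log2 fold change of Tlr3 in wt was 2.38 at 8 h (SE 0.15, limma adjusted p = 4.42e-08) and 2.83 at 12 h, and in Treml4-/- cells 2.72 and 2.60. The antisense gene Gm45542 overlaps Tlr3 on the opposite strand and shared 2.36% of its 126-base windows, and it was not stated whether counting used strand.

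Tlr13, the bacterial ribosomal RNA sensor and the most abundant receptor at M0, fell furthest among the endosomal receptors at 8 h and was higher again at 12 h. It had 781 and 666 CPM in wt M0 and 708 and 735 CPM in Treml4-/- M0. At 8 h it had 75.2 and 52.4 CPM in wt and 124 and 109 CPM in Treml4-/- cells, and at 12 h 299 and 225 CPM in wt and 337 and 296 CPM in Treml4-/- cells. The 3 time points did not overlap in either genotype. Mean Tlr13 CPM was 11.3-fold lower at 8 h and 2.76-fold lower at 12 h in wt, with log2 fold changes of -3.50 (SE 0.17, limma adjusted p = 6.91e-09) and -1.47 (SE 0.17, adjusted p = 8.42e-06). In Treml4-/- cells it was 6.20-fold lower at 8 h and 2.28-fold lower at 12 h, with -2.63 (adjusted p = 6.83e-08) and -1.19 (adjusted p = 5.18e-05). Under median of ratios the 12 h changes shrank to -0.60 in wt, still a DEG, and -0.36 in Treml4-/- cells, which was not.

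Tlr7 and Tlr8, the paired single-stranded RNA receptors next to each other on the X chromosome, differed little in CPM between M0 and LPS. Tlr7 had 157 and 118 CPM in wt M0, 134 and 135 CPM in Treml4-/- M0, and between 132 and 184 CPM in the 8 LPS libraries. Its M0 and LPS ranges overlapped. Tlr8 had 109 and 91.8 CPM in wt M0, 105 and 103 CPM in Treml4-/- M0, 114 and 123 CPM in wt and 137 and 176 CPM in Treml4-/- cells at 8 h, and between 98.4 and 120 CPM at 12 h. Under library size the log2 fold changes of Tlr7 were 0.11 to 0.31 over the 4 comparisons with no DEG, and Tlr8 was a DEG only at 8 h in Treml4-/- cells, at 0.58 (SE 0.14, limma adjusted p = 0.00184), a call lost without Treml4-/- M1-8 h replicate 2, at 0.40, and with the trend in GC content and gene length taken out, at 0.07. Under median of ratios both genes were DEG in all 4 comparisons, at 0.95 to 1.06 for Tlr7 and 0.88 to 1.33 for Tlr8. With that trend taken out, an alternative added once the data had been seen, Tlr7 was lower after LPS in all 4 comparisons, by -0.27 to -0.15, so its direction rests on the processing.

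Between 8 h and 12 h of LPS most receptors differed little. In wt 2 receptors were DEG, 1 higher and 1 lower, where 31.6% of all genes were (14% higher, 17.6% lower). In Treml4-/- cells 3 were DEG, 1 higher and 2 lower, where 32.3% of all genes were (12.9% higher, 19.4% lower). Under median of ratios 2 were DEG in either genotype, beside 33% of all genes in both. Tlr13 was higher at 12 h by 2.03 in wt (SE 0.17, limma adjusted p = 7.37e-06) and by 1.44 in Treml4-/- cells (SE 0.17, adjusted p = 7.40e-05) on the log2 scale. Tlr2 was lower, at -0.62 in wt (adjusted p = 0.00455) and -0.64 in Treml4-/- cells (adjusted p = 0.00370), and without wt M1-8 h replicate 1 the wt value was -0.41 and no longer a DEG. Tlr8 was lower in Treml4-/- cells at -0.52 (adjusted p = 0.00909), a call lost under median of ratios at -0.45, TMM at -0.38 and the correction for GC content and length at -0.32, and without Treml4-/- M1-8 h replicate 2 at -0.34 or M1-12 h replicate 2 at -0.38.

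Differences between genotypes, the comparison the study was designed for, gave far fewer DEG than LPS. For Tlr4 at 8 h, though, the fitted genotype difference, which was not a DEG, was larger than the fitted LPS change of either genotype under library size. That gap was not tested. Between genotypes 0 of the 10 receptors were DEG at M0, 8 h and 12 h, where 0.0993%, 0.091% and 0.132% of all genes were. By limma, 0, 5 and 1 receptors had an unadjusted p under 0.05 at M0, 8 h and 12 h, beside 3.35%, 21% and 7.55% of all genes. For the receptors, voom on the recovered reads called 0 at each time, and its share over all genes is not given here. At M0 the fitted differences, wt minus Treml4-/-, ran from -0.19 for Tlr5 to 0.26 for Tlr1 with intervals that included 0 for each receptor.

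At 8 h the difference was -0.93 for Tlr4 (SE 0.18, 95% interval -1.33 to -0.52) and -0.88 for Tlr13 (SE 0.17, interval -1.26 to -0.49), each with a limma adjusted p of 0.104, so neither was a DEG. Both Treml4-/- libraries lay above both wt libraries for Tlr4 and for Tlr13 at 8 h. As said for Tlr9, such an order can arise without a difference, and its share over all genes was not counted. The paper's DESeq2 analysis gave both genes among its 8 h DEG, as lower in wt cells. DESeq2 was not run here. With the same limits the paper's list for M1 macrophages was far longer than the 11 of 12086 genes that limma called at 8 h. A missing limma call is thus no contrary result for either gene. Over all 29 settings tried, the 8 h difference stayed between -1.18 and -0.67 for Tlr4 and between -1.13 and -0.62 for Tlr13, with adjusted p from 0.0183 to 0.663 and from 0.0174 to 0.509. Tlr13 became a DEG without wt M1-8 h replicate 1, at -1.13 (adjusted p = 0.0404), where 0.174% of all genes were. Tlr4, together with Tlr8, became a DEG without Treml4-/- M1-8 h replicate 1, at -1.18 (adjusted p = 0.0183), where 4.96% of all genes were, against 0.091% with that library. At 12 h the differences were -0.48 for Tlr4 (adjusted p = 0.574) and -0.28 for Tlr13 (adjusted p = 0.807). The other receptors with an unadjusted p under 0.05 at 8 h were Tlr3 at -0.40 and Tlr8 at -0.40, both lower in wt, and Tlr9 at 0.33, higher in wt, with adjusted p of 0.185, 0.176 and 0.194.

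**Figure D4:**
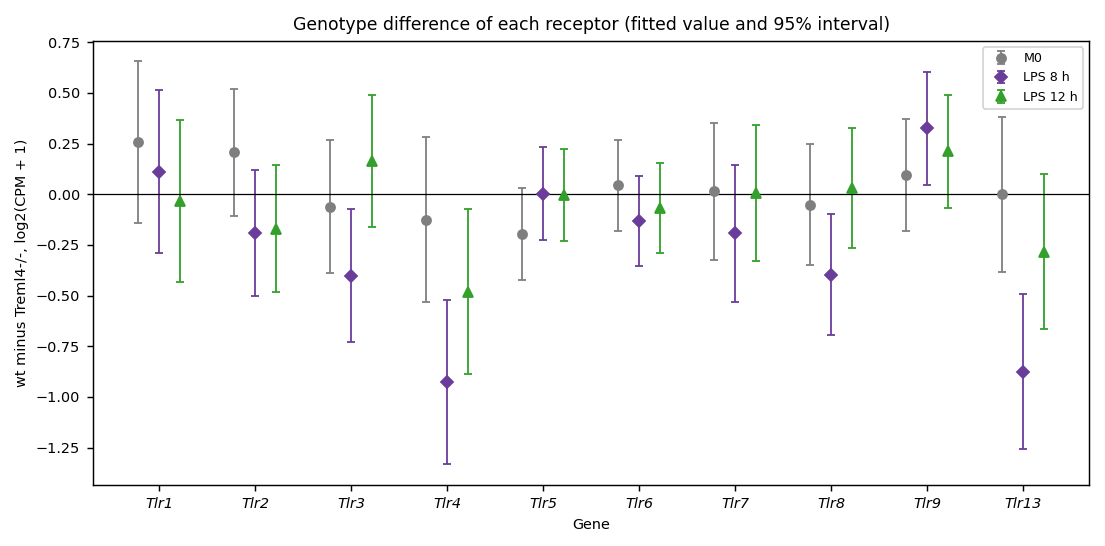
Fitted genotype difference of each receptor (x axis), wt minus Treml4-/- on the log2(CPM + 1) scale (y axis), with 95% intervals, at M0 (grey circles), 8 h (purple diamonds) and 12 h of LPS (green triangles), each from 2 against 2 libraries. Tlr4 and Tlr13 at 8 h lie lowest, at -0.93 and -0.88, and no difference shown was a DEG.

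Whether the genotype difference itself changed with LPS was tested directly. Of the 10 receptors, 0 were DEG for the difference at 8 h minus that at M0, where 0.00827% of all genes were, 0 for 12 h minus M0, where 0.00827% were, and 0 for 12 h minus 8 h, where 0% were. By limma, 2, 0 and 3 of the receptors had an unadjusted p under 0.05 in these tests, beside 6.67%, 3.82% and 3.21% of all genes. Voom called 0 in each, again with no share over all genes given. The change from M0 to 8 h was -0.80 for Tlr4 (SE 0.26, adjusted p = 0.729) and -0.88 for Tlr13 (SE 0.24, adjusted p = 0.729). From 8 h to 12 h the genotype difference of Tlr3 moved by 0.57 (SE 0.21), that of Tlr8 by 0.43 (SE 0.19) and that of Tlr13 by 0.59 (SE 0.24), each with adjusted p = 0.948.

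The 48 other genes of the pathway, listed by role, moved in both directions. Of these 47 were tested, and at 8 h 10 were higher and 21 lower in wt and 11 higher and 21 lower in Treml4-/- cells, with a median log2 change of -0.31 and -0.21 beside -0.74 and -0.70 over all genes. Of all genes 16.3% were higher and 60.6% lower in wt, and 17.7% and 58.1% in Treml4-/- cells. At 12 h 12 were higher and 19 lower in wt and 11 higher and 15 lower in Treml4-/- cells, beside 16.2% and 60.4%, and 16.1% and 59.6%, of all genes. Under median of ratios 23 to 26 were higher and 6 to 8 lower over the 4 comparisons, beside 30.9% to 32.9% and 30.9% to 33.1% of all genes, so the balance of directions turned with the scaling. By role in wt at 8 h under library size, 7 of 9 genes for folding, trafficking and processing of the receptors were lower and 0 higher, against 3 lower and 2 higher under median of ratios. Of 6 tested inhibitors 5 were lower and 1 higher, against 2 and 1. Of 17 kinases and ubiquitin ligases 4 were higher and 5 lower, against 11 and 2. Between genotypes limma called 0 of the 47 at M0, 8 h and 12 h, beside 0.0993%, 0.091% and 0.132% of all genes. It also called 0 in the tests of a changing difference, beside at most 0.00827% of all genes. These counts are near those shares.

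The 2 pathway genes that rose most and the 2 that fell most in both genotypes at 8 h did so under both scalings. Irf7, a transcription factor for type I interferon, rose from 39.4 ± 1.06 CPM (SD, n = 2) in wt M0 to 1900 ± 39.2 CPM at 8 h and 3627 ± 157 CPM at 12 h, with a log2 fold change of 5.56 at 8 h (SE 0.09, limma adjusted p = 1.23e-12). Tnfaip3, the gene of A20, an inhibitor of NF-kB signalling, rose from 46.7 ± 0.147 to 913 ± 38.4 CPM at 8 h and stood at 439 ± 74.8 CPM at 12 h in wt. Cnpy3, a chaperone that several Toll-like receptors need to fold, fell from 170 ± 10.1 to 32.4 ± 0.698 CPM at 8 h in wt, at -2.35 under library size and -1.52 under median of ratios. Tab1, a partner of the kinase TAK1, fell from 39.7 ± 1.12 to 9.24 ± 0.330 CPM, at -1.99 and -1.19.

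Genes with profiles most like each receptor were named by the root mean square distance between log2(CPM + 1) profiles over the 12 libraries, each centred on its own mean, for the 7 receptors whose condition means spanned at least 1. The 2 nearest of 12085 genes were Fbxw17 and Slc30a1 for Tlr1 (distances 0.14 and 0.16), Emilin1 and Elovl5 for Tlr2 (0.13 and 0.13), Med13 and Nmi for Tlr3 (0.11 and 0.14), and Chrna5 and Lrrc8c for Tlr9 (0.14 and 0.17). For Tlr5 they were Hdgfrp2 and Pcyt1b (0.05 and 0.06), for Tlr6 Ttc9c and Lyrm1 (0.07 and 0.07), and for Tlr13 Mfsd7b and Slc22a4 (0.15 and 0.20). Among these 7 the nearest pairs were Tlr3 with Tlr9, at 0.30, and Tlr1 with Tlr6, at 0.38. No other receptor came closer than 0.88 to Tlr13.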

How the data were processed

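RNA of wt and Treml4-/- BMDM was sequenced as 126 bp paired reads from strand-specific poly(A) libraries. Using the CCBR workflow, the authors ran STAR for alignment and Subread for gene counts, and deposited log2 CPM scaled to library size, with a prior count of 0.25 reads. The submitters' processing notes name mm10, and the annotation and the strand setting of the counting are not given in the sources used here. The prior was taken away, which left whole reads (tolerance 0.01) for 100% of the values in each library, and 1 CPM was added before taking log2. Genes reaching 1 CPM in 2 or more libraries (12086) were tested in limma (3.58.1, R 4.3.3). All 12 libraries entered the model, each condition having its own mean, with a trend in the prior variance and Benjamini-Hochberg adjustment. With 2 replicates per condition, p-values rest on a spread shared across conditions and genes. They measure the spread between cultures, and no label says whether replicates came from separate mice. Fold changes are on the log2(CPM + 1) scale and understate changes of low genes.

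Members and lists were chosen with earlier results of these data known. All 10 receptors were named, with Treml4, the 2 pathway genes of largest rise and fall in both genotypes at 8 h, any pathway gene called between genotypes, and the 2 nearest profiles. Tlr11, Tlr12, Gm45542, Xist, Ddx3y and single cell type markers fall outside that rule. Il1rl1 of the pathway list was not tested. Adgre1 was read under its older symbol. Exon lengths came from GENCODE M21 on GRCm38 and promoters from RefSeq GRCm38.p6. Python 3.11.15 with pandas 2.3.3 and numpy 2.4.6 was used for the tables. The test was tried on simulated counts with the same dispersion setting for every gene, where some genes changed in wt at 8 h only. That trial did not cover a shift of most genes with LPS. Alternatives were a pseudocount of 0.1, no filter, a filter at 5 CPM, and median of ratios and TMM scaling. Others were the replicate number as a fixed block, and genotype with replicate number as a random block. Further ones were no minimum fold change, no trend, a fit restricted to the compared libraries, the deposited log2 CPM and leaving out each library. Those added after seeing the data were voom, a replicate block per time point (with M0 also crossed), and a correction for GC content and length with and without the block.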

Additional observations from a re-analysis of the deposited data

How the results depend on the processing

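Of the single-gene values, 1095 of 1148 kept direction and call under the settings that used every library, and 851 of 864 when a library was left out. Tlr4 turned positive under median of ratios, at 0.072 (wt, 8 h), 0.12 (wt, 12 h) and 0.43 (Treml4-/-, 12 h), and under TMM, at 0.0044, 0.11 and 0.44. The GC and length correction, with and without the replicate block, turned Tlr7 at 8 h to -0.27 (wt) and -0.23 (Treml4-/-), and at 12 h to -0.20 and -0.15. It turned Tlr8 to -0.14 (wt, 8 h), -0.22 (wt, 12 h) and -0.25 (Treml4-/-, 12 h), and Tlr4 in Treml4-/- cells at 8 h to -0.45. The cause was not tested. Leaving out a library gave Tlr7 changes of -0.098 to 0.31 (wt, 8 h) and -0.0098 to 0.40 (wt, 12 h), lowest without wt M0 replicate 2. It gave Tlr8 -0.076 to 0.20 (Treml4-/-, 12 h), lowest without M1-12 h replicate 1, and Tlr4 -0.20 to 0.31 (Treml4-/-, 8 h), lowest without M1-8 h replicate 2. A lone remaining sample was assumed to vary like the others.

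Replicate numbers were not taken to pair the samples. Deviations of same-numbered wt and Treml4-/- libraries correlated at -0.26, 0.30 and 0.056 at M0, 8 h and 12 h. Within wt the values were 0.12 (M0, 8 h), 0.062 (M0, 12 h) and 0.41 (8 h, 12 h). Within Treml4-/- they were 0.46, -0.20 and -0.27 in that order. All 15 pairs of conditions ran from -0.27 to 0.46. A random block for genotype with replicate number had a correlation of 0.041. With the replicate block 1 receptor, Tlr13 (adjusted p = 0.0319), was called between genotypes at 8 h, beside 0.0993% of all genes. With the block within each time point 2 were called, Tlr4 (adjusted p = 0.0431) and Tlr13 (0.0409), beside 0.108% of all genes. Also crossing the numbers at M0 gave 2, beside 3.48%. The block changed no other call among the receptor values reported. Leaving out a library gave 0 to 2 receptors between genotypes at 8 h and 1 to 3 between 12 h and 8 h in wt. The planned count models (edgeR, DESeq2) were not run, although the recovered whole reads would have allowed them. Voom on those reads was run in their place. The filter at 5 CPM removed Tlr5. Depth limits only Tlr5, which lay at or under 3 reads at 8 h.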
